A study of Mus musculus with 18 samples.

Results

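The 10 genes described here (Ugt1a6a, Bhlha15, Lonrf2, Chid1, Ntrk2, Pappa2, Papss2, Gusb, Fkbp9 and Gnai1) were chosen by their measured levels in mouse delta cells, where their RNA was lower after interferon gamma (IFNγ). They were found by symbol among the 55487 gene rows of each library, and all 10 were among the 17338 genes that passed the filter on low counts. RNA was measured in 18 libraries from 6 groups of 3: IFNγ-treated delta cells, control delta cells, IFNγ-treated alpha cells, control alpha cells, IFNγ-treated beta cells and control beta cells. All came from islets of 12-week-old male C57BL/6 mice (C57BL/6JRj in the study's methods) kept in culture for 20 h, with 5 ng/mL IFNγ or without it, before the islets were dissociated and Epcam+ cells sorted by flow cytometry, with blood and endothelial cells gated out. Delta cells were the CD24-high fraction, alpha cells the CD24-low fraction without CD71, and beta cells the CD24-low fraction with CD71. The delta values chose the genes, so those values are given as a description with no test. The levels in alpha and beta cells were not used for the choice and were tested.

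IFNγ is released by activated T cells and natural killer cells. It binds a receptor that activates the kinases JAK1 and JAK2, and it is best known for genes that it turns on. Delta cells are the somatostatin cells of the islet, and somatostatin restrains insulin and glucagon release through receptors that couple to inhibitory G proteins. The 10 genes belong to no single pathway. Of them 3 encode enzymes of conjugation or lysosomal breakdown (Ugt1a6a, Papss2, Gusb), and Chid1 encodes a chitinase-like protein of lysosomes and the secretory pathway. Another 3 act in protein folding, quality control or the secretory programme (Bhlha15, Fkbp9, Lonrf2), and 3 act in signalling (Ntrk2, Gnai1, Pappa2).

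The libraries held between 6128845 and 11531734 expected counts. Levels are given as CPM, the TMM-scaled share of a library's counts, or as TPM, which also corrects for transcript length. All 9 IFNγ response genes looked at as a check were higher in IFNγ-treated cells of each type. Sst, the somatostatin gene, was at 9561 to 14819 CPM in IFNγ-treated and 14715 to 35919 CPM in control delta libraries, and at 74.1 CPM or less in every alpha and beta library. Cd24a, the gene of the sort marker, was at 615 to 1279 CPM in delta libraries and at 7.55 CPM or less in the others, so the defining markers of delta cells were present. One delta library stood apart. In control 3, Gcg, the glucagon gene, reached 2263 CPM, against 77.6 and 246 CPM in controls 1 and 2, and Sst was at 14715 CPM, against 35919 and 34772 CPM. The GC balance takes each gene's log2 CPM less that gene's mean over the 18 libraries. It is the median of these values in GC-poor genes (45.0% or less) less that in GC-rich genes (54.3% or more). In control 3 it was 0.84, near the 0.79, 0.43 and 0.86 of the IFNγ-treated delta libraries and unlike the −0.10 and −0.07 of controls 1 and 2. Values without control 3 are given where they differed most. Smaller shifts of the delta log2 fold change are not given gene by gene. Without control 3 it was −1.28 in place of −1.44 for Lonrf2, and −1.39 in place of −1.23 for Bhlha15.

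**Figure D1:**
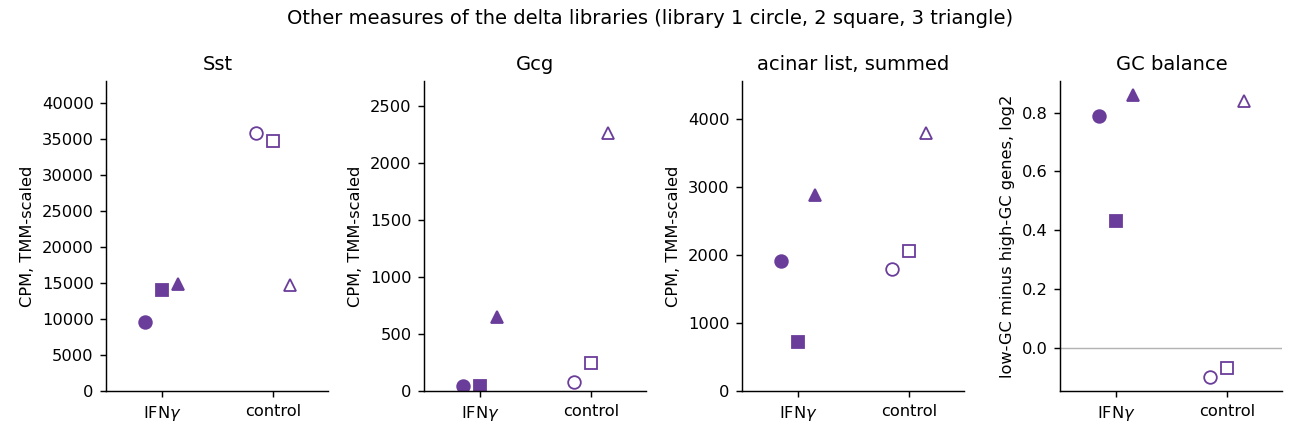
Sst, Gcg and the summed acinar list (30 digestive enzyme and related genes) in CPM, and the GC balance in log2 units, in the 3 IFNγ-treated delta libraries (filled) and the 3 control ones (open). Control library 3 (open triangle) lies apart from the other controls in all 4 measures and close to the IFNγ-treated libraries in Sst and GC balance.

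In delta cells 32 of the 17338 genes tested were lower after IFNγ (0.185%) at an adjusted p under 0.05, and the 10 genes were among them. The rule used this contrast, so the count says nothing further about them. Their log2 fold changes lay between −2.81 for Ntrk2 and −0.73 for Fkbp9, with a median of −1.46, beside a median of −0.05 over all tested genes. For each of the 10, every IFNγ-treated delta library was below every control delta library, in CPM and in TPM, a pattern that 7.80% of tested genes showed in CPM. In sorted populations fewer cells with the RNA and less RNA per cell cannot be told apart. The 22 other genes called lower had a median log2 fold change of −1.51, and 9 of them reached 10 CPM in control delta cells, against 8 of the 10 genes here. Of the 10, Fkbp9 lay nearest the threshold. Just outside it lay Hist2h2ab with a log2 fold change of −3.34 (SE 0.82), Gm2a with −0.85 (SE 0.21) and Gna12 with −1.11 (SE 0.27).

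**Figure D2:**
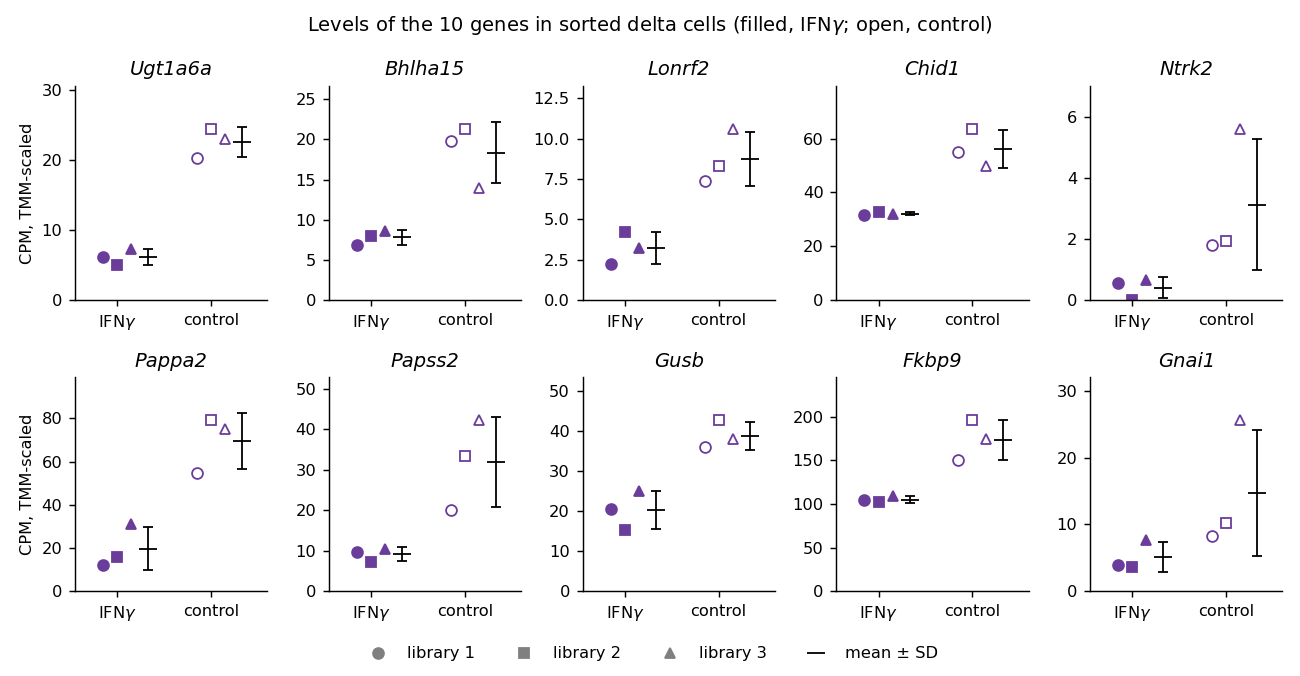
CPM of the 10 genes in IFNγ-treated (filled, left) and control (open, right) delta libraries, with the mean ± SD of 3 libraries; each panel has its own axis from 0. No IFNγ-treated library reaches the lowest control library in any panel, and control 3 (triangle) is far above the other controls for Ntrk2 (5.61 CPM) and Gnai1 (25.6 CPM).

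Among the enzymes, Ugt1a6a (ENSMUSG00000054545; chr1:88134809-88218997, + strand, GRCm38) had the lowest log2 fold change. It encodes a UDP-glucuronosyltransferase, which attaches glucuronic acid to phenols. Its level was 6.12, 4.97 and 7.21 CPM in IFNγ-treated delta libraries and 20.2, 24.4 and 23 CPM in control ones, a log2 fold change of −1.88 (SE 0.29). The replicates were close within each group, and control 3 did not stand apart. The gene shares its last exons with the rest of the Ugt1a cluster, so its share of reads is uncertain. In all 13 annotated genes overlap it on its strand, among them predicted genes outside the Ugt1a family. The summed level of the other Ugt1a genes was 6.54, 3.31 and 4.34 CPM in IFNγ-treated and 6.11, 7.57 and 8.10 CPM in control delta libraries. These ranges overlap, and the near-identical Ugt1a6b had no count in any delta library. In length-scaled units Ugt1a6a was at 1.24, 1.31 and 1.15 TPM in IFNγ-treated delta libraries, against 4.22, 6.30 and 5.18 TPM in control ones.

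Gusb (ENSMUSG00000025534; chr5:129989011-130003049, − strand) encodes the lysosomal beta-glucuronidase, which removes the glucuronic acid that enzymes such as Ugt1a6a attach. It stood at 20.5, 15.4 and 25.1 CPM in IFNγ-treated delta libraries and at 36.0, 42.8 and 38.0 CPM in control ones, a log2 fold change of −0.93 (SE 0.21). The gap between the groups was wider than the spread within either. The promoters of these 2 genes are shown because they are the members whose windows hold the E-box CATATG, a sequence that MIST1, the product of Bhlha15, is known to bind in the mouse. Capitals mark the E-box. The sequences are from RefSeq on GRCm38.p6, 5′ to 3′ on the strand of the gene.
Ugt1a6a, chr1:88134559-88134808, + strand: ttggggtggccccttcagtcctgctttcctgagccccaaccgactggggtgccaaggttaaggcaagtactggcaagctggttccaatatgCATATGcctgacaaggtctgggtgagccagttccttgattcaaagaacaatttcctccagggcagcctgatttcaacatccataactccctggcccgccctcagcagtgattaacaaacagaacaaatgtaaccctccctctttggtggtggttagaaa
Gusb, chr5:130003026-130003055, − strand: gctgacgtcaggCATATGgggaaacgatcc
The E-box began 159 bases before the start base of Ugt1a6a and 6 bases after that of Gusb.

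Windows of 300 bases, from 250 before the start to 50 after it, were found for all 10 genes, in 13 windows, and were searched on both strands. CATATG was in windows of 2 of the 10 genes and in 3.92% of the 32817 promoter windows of the mouse. The core of the interferon-stimulated response element (GAAA, any 2 bases, GAAA) was in none of them, and in 3.43% of windows. Gnai1 held the 2 other E-boxes searched, CAGCTG (16.3% of windows) and CACGTG (7.15%). With only the last 150 bases of each window, CATATG remained in Gusb alone (1.58% of windows). A match to these letters is not a binding site, and no match says only that the letters are absent from the window.

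Papss2 (ENSMUSG00000024899; chr19:32595790-32667187, + strand) encodes a synthase of PAPS, the activated sulfate that sulfotransferases use. Its level was 9.74, 7.26 and 10.5 CPM in IFNγ-treated delta libraries and 20.1, 33.4 and 42.2 CPM in control ones. The controls were spread over a wider range than the IFNγ-treated libraries, and the highest was control 3. The log2 fold change was −1.79 (SE 0.40), and −1.54 without control 3. Chid1 (ENSMUSG00000025512; chr7:141493136-141539857, − strand) encodes a chitinase-like protein of lysosomes and the secretory pathway that binds the receptor stabilin-1. It was at 31.6, 32.9 and 32.0 CPM in IFNγ-treated delta libraries and at 55.2, 63.6 and 49.8 CPM in control ones, a log2 fold change of −0.80 (SE 0.16). The IFNγ-treated libraries were nearly equal, with an SD of 0.647 CPM. Chid1 overlaps Tspan4 on the other strand, and the sources used here do not give whether reads were counted by strand.

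Bhlha15 (ENSMUSG00000052271; chr5:144190286-144194441, + strand) encodes MIST1, a transcription factor of cells built for secretion, among them the acinar cells of the exocrine pancreas. It was at 6.82, 8.03 and 8.60 CPM in IFNγ-treated delta libraries and at 19.8, 21.3 and 14 CPM in control ones, a log2 fold change of −1.23 (SE 0.21). Control 3 was the lowest of the controls, the reverse of its place for Ntrk2, Gnai1 and Papss2. Because acinar cells use this gene, the acinar list is given beside it: its summed level was 1918, 720 and 2880 CPM in IFNγ-treated and 1796, 2065 and 3805 CPM in control delta libraries. These ranges overlap. The acinar transcription factors Ptf1a and Rbpjl were at 0.246 CPM or less in every delta library. In beta controls 1, 2 and 3 Bhlha15 was at 37.6, 37.1 and 48.4 CPM, and the acinar list at 2819, 129 and 3.35 CPM. The part of acinar RNA in the Bhlha15 levels was not tested.

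Fkbp9 (ENSMUSG00000029781; chr6:56832059-56879358, + strand) encodes a prolyl isomerase of the endoplasmic reticulum, where it helps proteins to fold. With 104, 102 and 109 CPM in IFNγ-treated delta libraries and 150, 196 and 175 CPM in control ones it was the most abundant of the 10 there, also per length (mean of 17.4 TPM in IFNγ-treated and 31.3 TPM in control delta cells). Its log2 fold change of −0.73 (SE 0.18) was the smallest of the 10. Lonrf2 (ENSMUSG00000048814; chr1:38793645-38836711, − strand) encodes a RING-finger ubiquitin ligase with a LON domain, known in mouse neurons for the removal of misfolded proteins. It was at 2.23, 4.20 and 3.20 CPM in IFNγ-treated delta libraries and at 7.35, 8.33 and 10.6 CPM in control ones, a log2 fold change of −1.44 (SE 0.26). These levels are low: the 3 IFNγ-treated libraries together held 88 counts and the controls 256.

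Ntrk2 (ENSMUSG00000055254; chr13:58806569-59133970, + strand) encodes TrkB, the receptor of brain-derived neurotrophic factor. It had the largest change and the lowest level: 0.557, 0 and 0.656 CPM in IFNγ-treated delta libraries, from 12 counts in all, and 1.81, 1.95 and 5.61 CPM in control ones, from 91 counts. IFNγ-treated library 2 held no count, and control 3 held more than the other controls together. The log2 fold change was −2.81 (SE 0.55), −2.08 without control 3 and −3.48 without IFNγ-treated library 3, and −1.69 on log2(TPM + 0.1), a scale that understates the change of low genes. Gnai1 (ENSMUSG00000057614; chr5:18265135-18360355, − strand) encodes an alpha subunit of the inhibitory G proteins that lower cyclic AMP. Its level was 3.90, 3.69 and 7.70 CPM in IFNγ-treated delta libraries and 8.30, 10.2 and 25.6 CPM in control ones. The highest IFNγ-treated and the lowest control library were close to each other, and control 3 again held the most. The log2 fold change was −1.49 (SE 0.36) and −0.82 without control 3.

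Pappa2 (ENSMUSG00000073530; chr1:158711727-158980490, − strand) encodes pappalysin 2, a secreted protease that frees insulin-like growth factors by cutting their binding proteins. It was at 12.2, 15.9 and 30.9 CPM in IFNγ-treated delta libraries and at 54.6, 79.2 and 74.9 CPM in control ones, a log2 fold change of −1.81 (SE 0.39). Per length the groups lay closer: 1.08, 2.27 and 1.58 TPM in IFNγ-treated and 2.82, 5.50 and 4.30 TPM in control delta libraries. The effective length that RSEM assigned to the gene was 4994, 3897 and 6821 bases in IFNγ-treated delta libraries and 8639, 7871 and 8277 bases in control ones. It was between 7267 and 9389 bases in every alpha and beta library. The shorter lengths thus stood only in the IFNγ-treated delta libraries, and they make the difference in TPM smaller than that in CPM.

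Ntrk2, Gnai1, Lonrf2, Pappa2 and Papss2 were far more abundant in another islet cell type, so RNA of those cells in the delta fraction bears on their levels. Relative to alpha cells of the same treatment Gcg was at 0.05, 0.05 and 0.71% in IFNγ-treated and 0.08, 0.26 and 2.39% in control delta libraries, which overlap. Relative to beta cells Ins2, an insulin gene, was at 0.03, 0.04 and 0.13% in IFNγ-treated and 0.25, 0.16 and 0.69% in control delta libraries, with no overlap, and its level was 8.91 to 33.4 CPM in IFNγ-treated and 45.0 to 196 CPM in control delta libraries. These shares of the alpha and beta levels amounted to 50.2% of the mean Ntrk2 level in IFNγ-treated and 41.1% of that in control delta cells. They amounted to 5.9 to 9.3% of the levels of Pappa2, Lonrf2, Papss2 and Gnai1 in IFNγ-treated and 7.9 to 12.2% in control delta cells, and to 1.5% or less for the other members. Their part in the results was not tested.

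The summed list of delta cell genes was 11750, 15822 and 17248 CPM in IFNγ-treated and 38243, 37146 and 17481 CPM in control delta libraries, with no overlap. Most of this sum was Sst, at 9561, 14003 and 14819 CPM in IFNγ-treated and 35919, 34772 and 14715 CPM in control libraries, which overlap. Of the 12 genes listed 10 were tested, with a median log2 fold change of −0.32. None of them was called lower or higher (0.185% and 1.21% of all tested genes were). Hhex, a gene of this list, was at 339, 258 and 257 CPM in IFNγ-treated and 192, 200 and 227 CPM in control libraries. The list of polypeptide and ghrelin cell genes was at 2755, 3746 and 4260 CPM in IFNγ-treated and 7705, 8743 and 4153 CPM in control delta libraries, which overlap only through control 3. The part of both lists in the results was not tested. The lists of alpha, beta, duct, endothelial, immune and mesenchymal and Schwann cell genes had overlapping ranges. In IFNγ-treated delta libraries the alpha list was at 3541 to 5643 CPM, the beta list at 2979 to 6677 CPM, the duct list at 603 to 777 CPM, the endothelial list at 7.95 to 12.9 CPM, the immune list at 7.38 to 14.7 CPM and the mesenchymal and Schwann list at 19.7 to 27.3 CPM. In control delta libraries these lists were at 4143 to 7744, 5189 to 7476, 722 to 894, 7.37 to 9.54, 7.79 to 15.9 and 14.6 to 28.9 CPM in the same order. The leucocyte gene Ptprc was at 0.418 CPM or less.

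The alpha libraries gave a first look at the same genes in cells that had no part in the choice. None of the 10 passed an adjusted p of 0.05 there with edgeR (0 of 10, beside 0.0346% of tested genes called lower), although 8 of the 10 had negative log2 fold changes and the median was −0.44, beside −0.01 over all genes. At an unadjusted p under 0.05 edgeR counted 4 of the 10 as lower, beside 1656 of the 17338 genes tested. At the adjusted threshold DESeq2 counted 1 of the 10, beside 149 of 12965 genes lower, and limma-voom 0, beside 23 of 17338. Bhlha15 came closest. It was at 7.16, 7.92 and 5.51 CPM in IFNγ-treated and 13.1, 12.3 and 13.1 CPM in control alpha libraries, a log2 fold change of −0.90 (SE 0.21, adjusted p = 0.051). The groups did not overlap, and the acinar list was at 73.4 CPM or less in all 6 libraries. Over 30 alternatives the adjusted p for Bhlha15 in alpha cells ran from 0.00926 to 0.528 and the log2 fold change from −1.09 to −0.44. With an offset for GC content the log2 fold change was −0.44 (adjusted p = 0.528). The GC balance was 0.99, −0.54 and 0.85 in IFNγ-treated and −0.46, −0.70 and −0.74 in control alpha libraries.

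Ugt1a6a was at 6.21, 9.12 and 10.5 CPM in IFNγ-treated and 16.1, 15.7 and 13.7 CPM in control alpha libraries, with no overlap (log2 fold change −0.81, SE 0.28, adjusted p = 0.156). Gusb had a log2 fold change of −0.56 (adjusted p = 0.171) and Fkbp9 one of −0.43 (adjusted p = 0.185). In alpha cells IFNγ-treated libraries were all below the controls for 6 genes (Ugt1a6a, Bhlha15, Chid1, Pappa2, Gusb and Fkbp9), a pattern that 8.93% of tested genes showed, and in TPM for Ugt1a6a and Bhlha15 only. Papss2 and Gnai1 had no negative value. Papss2 had a log2 fold change of 0.01 (SE 0.38), and Gnai1 had one of 0.53 (SE 0.32, adjusted p = 0.319), with 188, 119 and 192 CPM in IFNγ-treated and 127, 102 and 116 CPM in control alpha libraries. Leaving out 1 library changed the count for alpha cells. Without IFNγ-treated alpha library 2, Bhlha15 and Gusb passed (adjusted p of 0.00954 and 0.0349), but the number of all genes called lower was then 1959, against 6 with it. Without delta control 3, Bhlha15 passed in alpha cells (adjusted p = 0.0303), beside 13 of 18022 genes called lower.

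In beta cells too none of the 10 passed (0 of 10, beside 0.00577% of tested genes called lower). At an unadjusted p under 0.05 edgeR counted 0 of them, and DESeq2 and limma-voom also called 0. All 10 log2 fold changes were negative, between −0.66 and −0.04, with a median of −0.27 beside 0.00 over all genes. Ntrk2, which beta cells hold at a high level, had the most negative value: 120, 123 and 116 CPM in IFNγ-treated and 179, 162 and 228 CPM in control beta libraries, with no overlap (log2 fold change −0.66, SE 0.32, edgeR adjusted p = 1.0). Fkbp9 and Gnai1 also did not overlap, and 4.45% of tested genes showed that pattern. Ugt1a6a was at 8.17, 16.7 and 11.2 CPM in IFNγ-treated and 17.2, 21.8 and 11.9 CPM in control beta libraries, which overlap. Bhlha15 was at 36.4, 32.0 and 43.0 CPM in IFNγ-treated and 37.6, 37.1 and 48.4 CPM in control beta libraries, a log2 fold change of −0.14 with a 95% interval of −0.54 to 0.25.

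**Figure D3:**
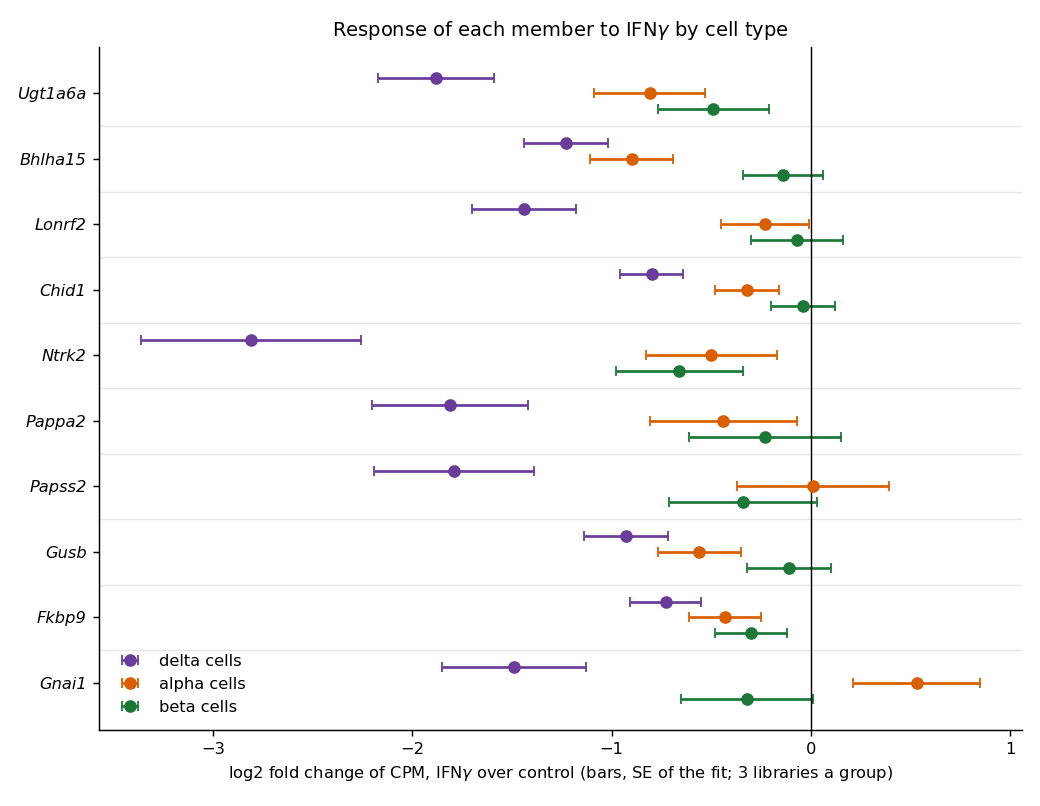
Log2 fold change of each gene, IFNγ-treated over control, in delta, alpha and beta cells, with the SE of the fit as bars (3 libraries a group). The delta estimate is the lowest of the 3 for every gene, which follows in part from how the genes were chosen, and all but Papss2 and Gnai1 in alpha cells lie below 0.

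The average of the alpha and the beta response was added after the data had been seen. None of the 10 passed in it with edgeR (0.0404% of tested genes were called lower), 5 were lower at an unadjusted p under 0.05, beside 612 of the 17338 genes tested, and DESeq2 called 1, beside 60 of 17334 genes lower, and limma-voom 0, beside 15 of 17338. The estimates were −0.65 for Ugt1a6a (SE 0.20, adjusted p = 0.169), −0.52 for Bhlha15 (SE 0.15, adjusted p = 0.111), −0.58 for Ntrk2 (SE 0.23, adjusted p = 0.426) and −0.36 for Fkbp9 (SE 0.12, adjusted p = 0.292). All but Gnai1 were negative. A date stands in each file name, and 2 dates had IFNγ-treated and control libraries of alpha cells and of beta cells. In alpha cells all 10 genes were lower in the IFNγ-treated library of the first date (median log2 ratio −0.16) and 9 of 10 on the second (−0.41). In beta cells the counts were 8 of 10 (−0.24) and 9 of 10 (−0.26). Ratios near 0 are counted too, such as −0.01 for Papss2 in alpha cells on 19 February. Each count sets 1 library against 1, with no share over all genes beside it, so the counts are not read as a result. No date had both IFNγ-treated and control delta libraries, so there date and treatment cannot be told apart within a date. With the date as a term over all 18 libraries the delta estimates were −0.16 for Fkbp9, −0.30 for Gusb, −0.55 for Chid1, −1.07 for Ugt1a6a and −2.95 for Gnai1, with a median of −1.28 over the 10.

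Set side by side, the delta less the alpha response ran from −2.30 (Ntrk2) to −0.30 (Fkbp9) log2 units, and the delta less the beta response from −2.14 (Ntrk2) to −0.43 (Fkbp9). The median difference was −1.13 against alpha and −1.27 against beta cells. These differences hold the values that chose the genes, so no test is given for them. The widest against alpha cells after Ntrk2 were −2.02 (SE 0.48) for Gnai1 and −1.80 (SE 0.55) for Papss2, the pair that was not negative in alpha cells. For Bhlha15 the difference was −0.32 (SE 0.30) against alpha and −1.09 (SE 0.29) against beta cells. Its alpha less its beta response was −0.76 (SE 0.29, edgeR adjusted p = 0.369), which did not pass, and no gene of the 17338 passed in this contrast (at an unadjusted p under 0.05, 892 of all genes and Bhlha15 among the 10 were lower, with no other tool run). The largest opposite difference, alpha above beta, was 0.85 (SE 0.46) for Gnai1, with an adjusted p of 0.397.

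For 5 of the 10 genes the differences between delta cells and at least 1 other cell type were far larger than those with IFNγ. The tested comparisons average the control and the IFNγ-treated cells of each type. The average holds the IFNγ-treated delta level, which was low by the choice of the genes, so it also holds part of the difference that chose them, and the estimate in controls alone is given beside it with no test. Against alpha cells, 5 of the 10 were lower in delta cells (14.5% of tested genes were) and 1, Fkbp9, was higher (15.8% were). Against beta cells, 8 of the 10 were lower in delta cells (21.5% of tested genes were) and none higher (23.9% were). These counts, and the adjusted p of single genes below, include that part and are not read as results of their own. Ntrk2 was the most extreme, with log2 differences of −5.51 (SE 0.32, adjusted p = 2.32e-10) from alpha and −6.99 (SE 0.33, adjusted p = 1.15e-11) from beta cells. In controls alone they were −4.36 (SE 0.39) and −5.92 (SE 0.41). Lonrf2 followed with −3.83 and −2.48 (−3.23 and −1.79 in controls), Papss2 with −1.95 and −5.14 (−1.05 and −4.41 in controls), and Gnai1 with −3.98 and −1.65 (−2.97 and −1.07 in controls). Delta cells had the lowest mean of the 3 types for these 4 genes in controls too. Pappa2 had −4.38 and −1.05, but −3.69 and −0.26 (95% interval −1.0 to 0.47) in controls, and against beta cells it did not pass on log2(TPM + 1) or log2(TPM + 0.1), with adjusted p of 0.0976 and 0.0631 by limma.

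The 5 others showed smaller differences, and their adjusted p also hold part of the difference that chose the genes. Bhlha15 (−1.70, SE 0.15), Gusb (−0.94, SE 0.15) and Chid1 (−0.44, SE 0.11) were lower in delta than in beta cells, with edgeR adjusted p of 3.79e-08, 5.82e-05 and 0.00316, and did not pass against alpha cells (0.35, 0.09 and −0.03). In controls alone the differences from beta cells were −1.16 (SE 0.20), −0.53 (SE 0.21) and −0.06 (95% interval −0.37 to 0.24), so for Chid1 the tested difference came with the IFNγ-treated cells, and it did not pass with the date as a term (adjusted p = 0.0942). Without delta control 3 Bhlha15 was higher in delta than in alpha cells (0.44, adjusted p = 0.035). Fkbp9 was higher in delta than in alpha cells by 0.73 (SE 0.13, adjusted p = 1.81e-04; 0.87 in controls, SE 0.18), which did not pass on log2(TPM + 1) or log2(TPM + 0.1) (adjusted p of 0.0526 and 0.0531 by limma), and did not pass against beta cells (−0.16, SE 0.12). Ugt1a6a passed in neither, with 0.04 (95% interval −0.35 to 0.43) against alpha and −0.29 (−0.67 to 0.10) against beta cells.

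**Figure D4:**
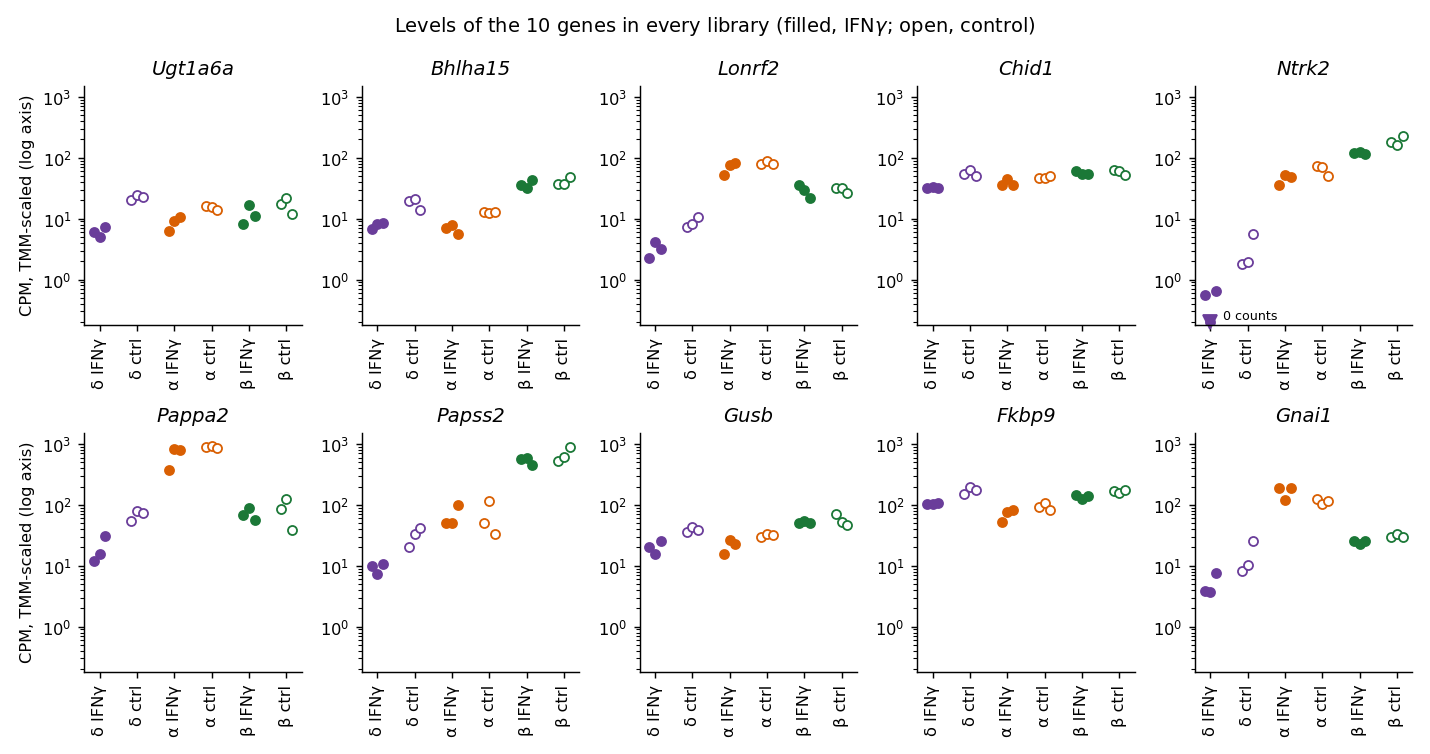
CPM on a log axis of each gene in all 18 libraries, by cell type (δ, α, β) and treatment (filled, IFNγ; open, control, ctrl). Ntrk2, Lonrf2, Pappa2, Papss2 and Gnai1 spread over 1 or more decades between cell types, with delta cells lowest on average over both treatments, while Ugt1a6a, Chid1, Gusb and Fkbp9 stay within 1 decade; the IFNγ-treated delta library without Ntrk2 counts is drawn as a triangle on the lower edge.

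Among controls alone, alpha and beta cells could be tested against each other. Here 8 of the 10 differed: 3 were higher in alpha cells (9.56% of tested genes were) and 5 were lower in alpha cells (10.1% were). Pappa2 was 10.8-fold higher in alpha cells, with 902, 938 and 862 CPM in alpha and 84.5, 127 and 39.3 CPM in beta controls (log2 difference 3.43, SE 0.41, adjusted p = 8.93e-06). No alpha control came near a beta control, and the delta controls at 54.6 to 79.2 CPM lay within the beta range. Gnai1 was higher in alpha cells by 1.90 (SE 0.33, adjusted p = 4.12e-04) and Lonrf2 by 1.44 (SE 0.23, adjusted p = 1.64e-04), with 80.1, 87.9 and 78.9 CPM in alpha and 32.2, 32.2 and 26.5 CPM in beta controls. These were the same genes for which delta cells lay furthest below alpha cells, apart from Ntrk2.

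Papss2 had the opposite pattern. It was at 50.7, 114 and 33.6 CPM in alpha and 535, 603 and 897 CPM in beta controls (log2 difference −3.36, SE 0.41, adjusted p = 1.06e-05), and the log2 difference of delta from beta controls was −4.41 (SE 0.43). The highest of the alpha controls, library 2, was also the one with the most Ins2 (6503 CPM, against 1728 and 633 CPM in the other alpha controls). Ntrk2 was at 72.5, 70.4 and 49.7 CPM in alpha and 179, 162 and 228 CPM in beta controls (log2 difference −1.56, SE 0.33, adjusted p = 0.00215). Bhlha15 (−1.67, SE 0.21, adjusted p = 1.46e-05), Gusb (−0.82, SE 0.21, adjusted p = 0.00972) and Fkbp9 (−0.81, SE 0.18, adjusted p = 0.00274) were also lower in alpha than in beta controls. The last 2 did not pass on log2(TPM + 1), with adjusted p of 0.40 and 0.181, nor did Gusb without beta control 1 (0.0663). Chid1 and Ugt1a6a did not pass, with 95% intervals of −0.59 to 0.02 and −0.71 to 0.37.

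By control means the order of the cell types was beta, alpha, delta for Ntrk2 and Papss2, with overlap between the alpha and delta controls of Papss2, and alpha, beta, delta for Lonrf2 and Gnai1, with no overlap. For Bhlha15 and Gusb it was beta, delta, alpha, also with no overlap. Delta and beta controls overlapped for Pappa2, and delta controls overlapped both other types for Chid1. For Ugt1a6a the control means were 22.6 CPM in delta, 15.2 CPM in alpha and 17 CPM in beta cells, and only alpha lay outside the delta range. Fkbp9 was at 173 ± 23 CPM in delta, 94.7 ± 12.7 CPM in alpha and 166 ± 10.1 CPM in beta controls (SD, n = 3 each), with delta and beta cells overlapping. Among control delta cells the order of the genes per length was Fkbp9 at a mean of 31.3 TPM, Chid1 at 9.71, Gusb at 9.06, Ugt1a6a at 5.23, Papss2 at 4.68, Pappa2 at 4.21, Bhlha15 at 2.75, Gnai1 at 2.44, Lonrf2 at 0.83 and Ntrk2 at 0.40 TPM. The neighbours from Ugt1a6a to Pappa2 differed by less than their SDs of 1.04 to 1.71 TPM, as did Chid1 and Gusb, and Bhlha15 and Gnai1. In IFNγ-treated delta cells Fkbp9 remained first, at 17.4 ± 4.21 TPM, and Ntrk2 last, at 0.0567 ± 0.0493 TPM (SD, n = 3 each).

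The neighbours of the 10 genes in their pathways were taken from lists chosen with earlier results of these data known. In delta cells almost none of them passed the test, beside 0.185% of all tested genes called lower and 1.21% called higher: the 9 tested genes for UDP-glucuronosyltransferases and UDP-glucuronate supply had 1 call, and the lists for sulfate activation and transfer (19 genes tested), lysosomal glycosidases and sulfatases (27), neurotrophins, receptors and adaptors (11), pappalysins and the IGF axis (9), endoplasmic reticulum isomerases and folding (18), G-alpha i and cyclic AMP signalling (26), LON-domain and RING ligases (10) and MIST1 partners and targets (11) had none in either direction. Their median log2 fold changes lay between −0.34 and −0.04, beside −0.05 over all genes. The 1 call was Ugt2b35, another UDP-glucuronosyltransferase, with a log2 fold change of −2.55 from 3.69 CPM in control delta cells (named after its value was seen). Ugdh, which makes UDP-glucuronate, was at 48.7 ± 7.94 CPM in IFNγ-treated and 52.5 ± 6.72 CPM in control delta cells (SD, n = 3 each). Xbp1, a gene of the MIST1 list, was at 223 ± 14.8 CPM in IFNγ-treated and 300 ± 44.3 CPM in control delta cells (log2 fold change −0.43, SE 0.18, adjusted p = 0.359).

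In alpha cells these 9 lists also had no call (0.0346% of all tested genes were called lower and 0.94% higher), and in beta cells (1.06% higher) they had 1, Tpst1, a tyrosylprotein sulfotransferase, which was higher after IFNγ by 0.87 (SE 0.17, adjusted p = 0.00794). Between cell types the lists held more differences. Of the 27 lysosomal genes, 17 were lower in delta than in beta cells and none higher, with Naglu (−1.32), Neu1 (−1.19), Psap (−1.06) and Hexa (−0.94) the largest, beside 21.5% of all tested genes. Pappa, the paralog of Pappa2, ran the other way: it was higher in delta than in alpha cells by 5.94 (SE 0.58) and than in beta cells by 5.69 (SE 0.59), where the values of Pappa2 were −4.38 and −1.05. Its mean was 5.10 CPM in IFNγ-treated and 5.74 CPM in control delta cells and 0.0987 CPM or less in the other groups, so the sizes of these differences rest on very few counts. Stc1, a stanniocalcin that inhibits pappalysins, was also higher in delta cells, by 4.92 and 4.56. Of 26 genes of G-alpha i and cyclic AMP signalling, 9 were lower and 3 higher in delta than in alpha cells. Beside them, 14.5% of all tested genes were lower and 15.8% higher. The somatostatin receptor Sstr2 was lower in delta cells (−4.70) and the receptor Sstr1 higher (4.70), while Adcy1, an adenylate cyclase, was lower (−4.47).

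Across the 18 libraries the 10 genes fell into groups by cell type. Pearson's r of log2 CPM, given as a description over 18 libraries that share 3 cell types, was 0.94 between Lonrf2 and Gnai1 and 0.93 between Pappa2 and Gnai1, the genes high in alpha cells, and 0.91 between Bhlha15 and Gusb and 0.90 between Chid1 and Gusb. It was −0.53 between Fkbp9 and Gnai1. The gene most like each member by the same measure was Maob for Ntrk2 (0.987), Olfm4 for Papss2 (0.983), Ankrd34c for Gnai1 (0.982), Ttr for Pappa2 (0.976), Slc7a8 for Lonrf2 (0.973), Prdx6 for Bhlha15 (0.961), Fam171a1 for Fkbp9 (0.954), Sec61b for Gusb (0.95), Colgalt1 for Chid1 (0.919) and Fam167a for Ugt1a6a (0.844). Slc7a8 and Fam167a were themselves among the 22 other genes called lower in IFNγ-treated delta cells.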

How the data were processed

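RNA from 18 sorted islet cell populations (total RNA, Ovation SoLo kit, rRNA-depleted and random-primed, paired ends of 75 bases) was quantified by the authors with STAR 2.5.2b on GRCm38 and RSEM, with no RSEM version or strand setting named in the sources used here. Per gene, each deposited file gives expected counts, TPM, FPKM and effective length. Expected counts deposited by the authors are estimates, and 89.6% to 92.7% of values were whole; they were rounded. The authors' TPM values are scaled for length and library within each sample and served for levels and as an alternative. FPKM was not used. Symbols and coordinates came from GENCODE M21 (99.53% of IDs matched); the study names a later release.

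All 18 libraries entered 1 fit in edgeR 4.0.16 (R 4.3.3) with a mean per group: filterByExpr (minimum count 10), TMM, quasi-likelihood F-test, Benjamini-Hochberg over 17338 genes, threshold 0.05. SE and 95% intervals are from that fit. By the study's methods each replicate was a separate biological sample; the labels give no batch, and the study's own DESeq2 1.32.0 fit had one, so it could not be copied. The file name of beta control 3 carries the word papain in place of the sort marker that the other file names carry, and its grouping follows the label. Alternatives used DESeq2 1.42.0, limma 3.58.1 (voom, and limma on log2 TPM), other size factors, no filter, the date, own groups alone, a GC offset, a replicate block and leaving out each library. Scripts were tested on simulated data. The genes, the lists and the rule for naming list genes (up to 4 past the threshold with at least 5 CPM, otherwise the 2 most abundant) were chosen with earlier results of these data known. 1 gene of the IFNγ check list and 1 motif are not reported here.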

Additional observations from a re-analysis of the deposited data

How the results depend on the processing

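Every median over the 10 genes kept its direction under the 30 alternatives (29 where no date could be paired). In alpha cells the count of members past the threshold was 0. It became 1 with DESeq2 (Bhlha15, adjusted p = 0.00926) and with size factors by relative log expression (Bhlha15, 0.0481). These fits called 149 of 12965 and 8 of 17338 genes lower. With single libraries left out the count of members was between 0 and 2. It was 1 without delta control 3 (Bhlha15, 0.0303), beside 13 of 18022 genes called lower. It was 2 without IFNγ-treated alpha library 2 (Bhlha15 and Gusb), beside 1959 of 18038 genes called lower. In beta cells the count of members stayed at 0. In the average of both responses the count of members was also 0, with a range of 0 to 1. It became 1 with DESeq2 (Bhlha15, adjusted p = 0.039), beside 60 of 17334 genes called lower. With no filter it was 1 (Ntrk2, 0.0386), beside 135 of 32335, and with alpha and beta libraries alone 1 (Ntrk2, 0.0464), beside 14 of 15895. With the GC offset it was 1 (Ugt1a6a, 0.0446), beside 27 of 17338. Without IFNγ-treated alpha library 2 it was 1 (Bhlha15, 0.047), beside 210 of 18038. Which members passed thus changed with the setting, and the cause was not tested.

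The median log2 fold change in delta cells was −1.464, ran from −1.673 to −1.298 with single libraries left out and was −0.833 on log2(TPM + 1), where the pseudocount shrinks low genes. The median difference from alpha cells, −1.135, became −0.240 on log2(TPM + 1), −0.724 on log2(TPM + 0.1) and −0.763 with the date as a term. It was −1.324 to −0.989 over left-out libraries. The estimate of Ntrk2 reversed (0.338 on log2(TPM + 1)). Reversals were counted only for genes whose main estimate was large beside its SE. Genes with small estimates, such as Gusb (−0.38, SE 0.30), could change sign without being counted. The median difference from beta cells, −1.269, became −0.827 on log2(TPM + 1). With the date as a term the delta estimates of Fkbp9 and Gusb were −0.16 and −0.30. The median of control delta over control alpha cells, −0.416, ran from −0.555 to −0.095, the last without alpha control 2. Over left-out libraries the counts of members called were 6 to 7 for delta against alpha cells and 8 for delta against beta cells. For control alpha against control beta cells the count was 7 to 8. The counts with delta cells hold part of the difference that chose the genes and are not read as results. With all libraries 14.5% of tested genes were lower and 15.8% higher in delta than in alpha cells. Against beta cells 21.5% were lower and 23.9% higher. In alpha against beta controls 10.1% were lower and 9.56% higher.

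Over all genes, 32 were called lower in delta cells; DESeq2 called 97, no filter 177, the GC offset 64, delta libraries alone 6, and leaving out IFNγ-treated delta library 3 gave 74, library 1 gave 16. In alpha cells 6 became 149 with DESeq2 and 446 with no filter.

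With the replicate number as a block within each cell type the counts for the 10 genes stayed at 0 in alpha and beta cells. That fit called 56 of 17338 genes lower in alpha cells and 0 in beta cells. Between delta and the others the counts were 6 and 8 (7 and 8 with the GC offset as well, where Bhlha15 joined). These hold part of the difference that chose the genes and are not read as results. The fit called 2736 genes lower and 2894 higher in delta than in alpha cells, and 3964 and 4209 against beta cells. The delta median was −1.46 (−1.51 with the GC offset as well). Samples of 1 number did not deviate together in every pair (r of −0.048, 0.202 and 0.279 in delta, 0.094, 0.054 and −0.194 in alpha, 0.223, 0.192 and 0.126 in beta cells). These few values cannot decide whether the numbers mark pairs in delta and alpha cells. In beta cells every pair was over 0.1. The fit with the block called no gene lower there, so the count of 0 for the 10 genes says nothing about them. Library and number matched best in 1 of 3 delta, 1 of 3 alpha and 3 of 3 beta pairs. With low counts, as for Ntrk2 and Lonrf2 in delta cells, depth limits the precision.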
